A study of Caenorhabditis elegans with 2 samples.

Results

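The worm protein CCCH-3 carries zinc fingers of the CCCH type. The regions described here are candidate regions of a CCCH-3 chromatin immunoprecipitation that ranked just below the regions kept as peaks. They were chosen by the signal value of the pooled list, so that value is a description and supports nothing. All 30000 pooled candidates were sorted by it, ranks 219 to 1218 were taken, and the 8 regions of these 1000 that overlap a thresholded peak were left out. The 992 regions that remained are called the sub-threshold regions. The 218 thresholded peaks, the 992 next-ranked candidates (ranks 1219 to 2211) and all 28738 lower-ranked candidates that overlap no peak are given beside them. The question was whether the small RNA genes, promoters, gene families and GC content seen among the peaks continue below the threshold, and which of these regions were high in both replicates.

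The experiment had 1 group, with 2 biological replicates of whole young adult worms at 70 hours, males and females pooled, grown from starved L1 larvae obtained by bleaching. The strain, OP628, carries the integrated transgene wgIs628, a fosmid with ccch-3 fused at its C-terminus to TY1 EGFP 3xFLAG and with unc-119(+) as the marker, in the unc-119 (tm4063) background. Chromatin was sonicated to 200 to 800 bp and precipitated with an antibody against GFP. The worms hold many cell types, so weak recovery in all cells and strong recovery in a few cannot be told apart. The strain is 1 transgenic line, and untagged worms are not analysed here. Read depth cannot be had from the lists used, and intervals below are 95% Wilson intervals that cover counting error only. Neighbouring regions of 1 pooled list are not replicates of a condition, so no test over regions was made.

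CCCH zinc finger proteins are best known for binding RNA, and in C. elegans several of them, such as OMA-1 and MEX-1, act in the germ line and early embryo. The small structural RNA genes among the peaks belong to several transcription systems. tRNA genes are read by RNA polymerase III, which is recruited through promoter elements inside the gene, the A box and the B box. snoRNAs guide the chemical modification of other RNAs, and many of their genes lie in introns of protein-coding genes. Lists of candidate regions below a reproducibility threshold hold true sites and noise in unknown shares, because the measure of the irreproducible discovery rate (IDR) needs both as input.

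The tRNA genes under the sub-threshold regions are shown first, because they were the most frequent small RNA genes there. Sequences are those of the RefSeq genome of WBcel235 (ce11), on the coding strand from 5′ to 3′. The capitals mark GTTCNANNC, the core letters of the B box. The genes are K08B5.t1 (chrX:16551511-16551583, plus strand, region of rank 228) and Y73B6BL.t1 (chrIV:6481161-6481233, plus strand, rank 230), the 2 highest, and K06A4.t1 (chrV:9503562-9503633, plus strand, rank 245) and F43C9.t1 (chrX:4789132-4789204, plus strand, rank 250), whose regions were among the 1000 highest of both replicates.
K08B5.t1 (tRNA-Phe): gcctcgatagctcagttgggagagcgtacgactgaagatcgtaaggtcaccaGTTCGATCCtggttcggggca
Y73B6BL.t1 (tRNA-Val): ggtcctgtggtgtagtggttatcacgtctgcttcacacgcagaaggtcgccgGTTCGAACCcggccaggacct
K06A4.t1 (tRNA-Ala): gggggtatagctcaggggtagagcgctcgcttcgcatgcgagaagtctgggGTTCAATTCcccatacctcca
F43C9.t1 (tRNA-Lys): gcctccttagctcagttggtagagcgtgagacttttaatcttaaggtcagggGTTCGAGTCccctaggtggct
The letters GTTCNANNC were found on the coding strand of 85 of the 87 tRNA genes under sub-threshold regions, 40 of the 41 under peaks and 587 of all 612 nuclear tRNA genes (95.9%). Nearly every tRNA gene holds them, so they do not set these genes apart.

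snoRNA genes were the second class, and the examples, chosen because they hold the marked letters, are M106.6 (chrII:10840317-10840391, plus strand, rank 221) and C53B7.8 (chrX:6867938-6868008, plus strand, rank 236). Both regions were in the top 1000 of both replicates. The capitals mark the letters CTGA within the last 15 bases of the gene, which are those of the D box of a class of snoRNAs. C27H5.9 (rank 226), which ranked between them and is not shown, does not hold them there.
M106.6: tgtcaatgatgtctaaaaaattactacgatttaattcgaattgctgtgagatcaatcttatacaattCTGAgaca
C53B7.8: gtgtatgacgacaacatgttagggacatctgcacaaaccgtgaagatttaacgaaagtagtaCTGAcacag
These letters stood within the last 15 bases of 10 of the 21 snoRNA genes under sub-threshold regions (47.6%), 10 of the 24 under peaks (41.7%) and 77 of all 346 snoRNA genes (22.3%). Only the coding strand was searched. A match is a description and not a site.

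Small RNA genes continued below the threshold at a lower share. A tRNA gene lay within 100 bp of the summit in 89 of the 992 sub-threshold regions (8.97%, 7.35 to 10.9%) and in 41 of the 218 peaks (18.8%, 14.2 to 24.5%). The share was 2.92% in the next-ranked candidates (29 regions), 0.630% in all lower-ranked candidates and 1.06% over all 30000 candidates. The interval of the sub-threshold regions lies below that of the peaks and above that of the next-ranked candidates. Within the sub-threshold regions, cut into 4 equal parts by rank, the counts were 44, 27, 13 and 5 of 248 (17.7%, 10.9%, 5.24% and 2.02%). The interval of the uppermost part, 13.5 to 22.98%, overlaps that of the peaks. Taking ranks 219 to 1218 of each replicate's own nuclear list in place of the pooled list gave 3.50% in replicate 2 alone and 5.82% in replicate 1 alone, so the pooled share was above both.

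**Figure D1:**
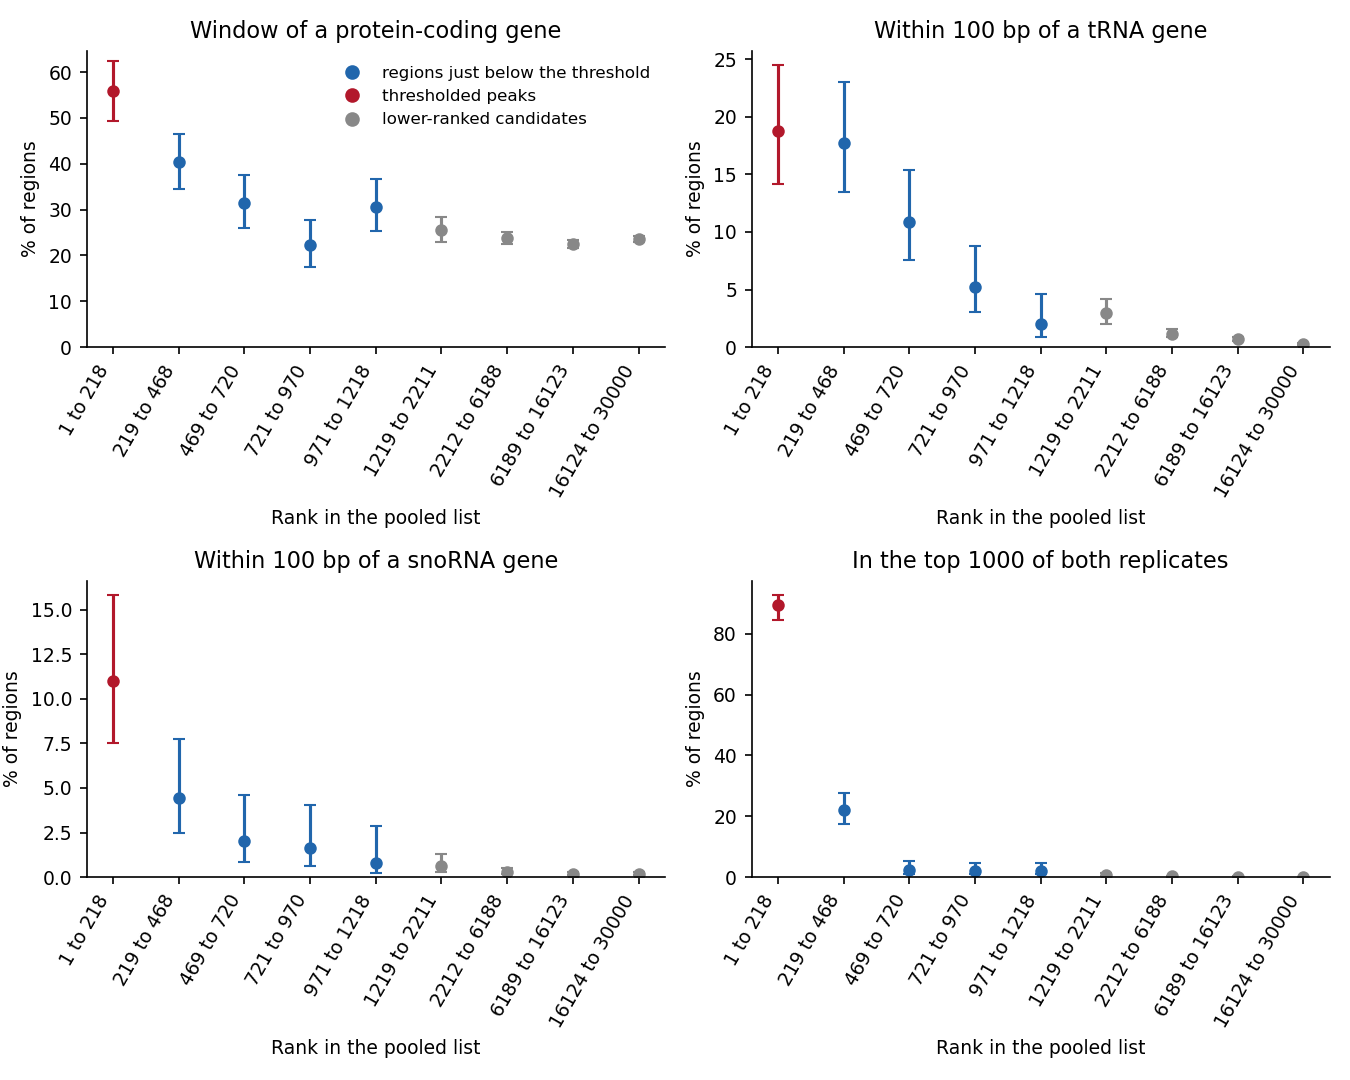
Share of regions (%, y axis) by rank in the pooled list (x axis, ranks 1 to 218 being the thresholded peaks) for 4 features, with 95% Wilson intervals as bars. Sub-threshold regions near a tRNA gene made up 17.7% of the uppermost part and 2.02% of the lowest, and the share in the top 1000 of both replicates was 22.2% in the uppermost part.

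No tRNA gene was under both lists, which follows from leaving out regions that overlap a peak, since the nearest peak summit was at least 576 bp away. The sub-threshold regions lay at 87 of the 612 nuclear tRNA genes (14.2%), and with the 41 under peaks the 2 lists reached 128 genes (20.9%). A further 172 had only a lower-ranked candidate. The regions lay over the genes in all positions: 37 of the 89 summits were inside the gene, 27 upstream of its start and 25 downstream of its end. Their median position was 40 bp downstream of the start, as it was for the peaks near tRNA genes (40 bp), with genes of median length 72 bp. Distances this short are not resolved with fragments of 200 bp or more.

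The genes covered 20 tRNA products. tRNA-Arg and tRNA-Lys had 8 genes each, of 44 and 46 in the genome, tRNA-Glu and tRNA-Thr had 7 each, of 41 and 34, and tRNA-Asn and tRNA-Tyr had 1 each, of 20 and 19. Another copy with the identical sequence existed for 75 of the 87 genes (86.2%), for 37 of the 41 under peaks (90.2%) and for 469 of all 612 (76.6%). The authors' treatment of reads that match several copies is not given in the sources used here, so a region at 1 copy may hold reads of another. On the X chromosome, which carries 276 of the 612 genes (45.1%), lay 49 of the 89 sub-threshold regions near tRNA genes (55.1%, 44.7 to 65.0%) and 29 of the 41 such peaks (70.7%, 55.5 to 82.4%). The interval of the sub-threshold regions holds the genomic share.

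The replicates differed for single tRNA regions. The region at K08B5.t1 (pooled signal value 92.0) ranked 140 in replicate 1 and 1251 in replicate 2. The region at Y73B6BL.t1 (91.8) ranked 207 and 1431, higher again in replicate 1. At Y39A1A.t1, a tRNA-Thr gene on chromosome III (90.8), the order was the opposite, with rank 23908 in replicate 1 and 101 in replicate 2. The region at W09G10.t1, a tRNA-His gene on chromosome II (90.8), ranked 173 in replicate 2 and 1385 in replicate 1. Only K06A4.t1 (959 and 207) and F43C9.t1 (974 and 346) were in both tops among the 6 highest tRNA regions.

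snoRNA genes lay within 100 bp of 22 sub-threshold summits (2.22%, 1.47 to 3.34%) and of 24 peaks (11.01%, 7.51 to 15.9%). The share was 0.605% in the next-ranked candidates (6 regions), 0.205% in all lower-ranked candidates and 0.36% over all candidates. By part, the counts were 11, 5, 4 and 2 of 248. They belonged to 21 of 346 snoRNA genes, and with the 24 under peaks 45 genes (13.0%) lay under either list. That no snoRNA gene was under both is again set by leaving out regions that overlap a peak. In the replicates' own lists at the same ranks, the share was 1.27% in replicate 2 alone and 1.16% in replicate 1 alone.

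The 6 highest snoRNA regions were at M106.6 (rank 221, signal value 93.8), C27H5.9 (226, 92.7), C53B7.8 (236, 91.3), Y67A10A.14 (242, 90.7), W06H8.17 (259, 88.7) and F11A10.9 (276, 87.6). The first 5 were in the top 1000 of both replicates. M106.6 ranked 98 and 822 in replicates 1 and 2, C27H5.9 ranked 533 and 465, and C53B7.8 ranked 336 and 507. F11A10.9 ranked 106 in replicate 1 but only 3788 in replicate 2. Of the 22 summits, 11 were upstream of the snoRNA gene and 8 inside it, and 9 lay in an intron of a protein-coding gene. Only 1 of the 22 was on X, which carries 33 of the 346 snoRNA genes, and none of the snoRNA peaks was.

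The other small RNA classes were rare. snRNA genes, which make spliceosomal and spliced leader RNAs, had 3 sub-threshold regions (0.302%, 0.103 to 0.885%) and 6 peaks (2.75%, 1.27 to 5.87%), against 0.143% of all candidates. In replicate 2's own list at these ranks the snRNA share was 0.530%. The 3 genes were R07E5.16 (III, rank 745), F32B5.9 (I, rank 944) and sls-2.7 (I, rank 1185), the last a gene of the SL2 spliced leader RNA. R07E5.16 and F32B5.9 were high in replicate 2 alone (ranks 573 and 499, against 25994 and 18597 in replicate 1), and sls-2.7 in replicate 1 alone (739, against 14950 in replicate 2). microRNA genes, which none of the 218 peaks lay near, had 3 regions (0.302%, against 0.127% of all candidates), at mir-53, mir-5549 and mir-8198, with ranks 459, 492 and 1134. The interval of this share, 0.103 to 0.885%, overlaps that of the peaks, 0 to 1.73%. No sub-threshold summit lay within 100 bp of an rRNA gene. By a limit of 3 counts this allows a share of up to 0.302%, and by the Wilson interval up to 0.386%. None of the peaks, the next-ranked candidates or the 28738 lower-ranked candidates lay near an rRNA gene either. The absence therefore does not set the sub-threshold regions apart.

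Promoters continued as well, at a share between those of the peaks and of the next-ranked candidates. A summit counted as in a promoter window from 1000 bp before a gene start to 200 bp after it. Such windows held 429 sub-threshold summits (43.2%, 40.2 to 46.3%) and 182 of the 218 peak summits (83.5%, 78.0 to 87.8%). The share was 31.8% (28.9 to 34.7%) in the next-ranked candidates, 26.7% in all lower-ranked candidates and 27.7% over all candidates. By part of the sub-threshold regions it was 58.5%, 45.2%, 33.1% and 36.3%, so the 2 lower parts lay close to the next-ranked candidates. With the window narrowed to 250 bp before and after the start, the sub-threshold share was 27.5%. Away from tRNA, snoRNA and snRNA genes it was 35.9% (315 of 878), against 75.5% of such peaks and 25.98% of such lower-ranked candidates.

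Starts of protein-coding genes alone gave 309 sub-threshold summits in a window (31.1%, 28.3 to 34.1%) and 122 peak summits (56.0%, 49.3 to 62.4%), where 23.8% of all candidates had one. The parts had 40.3%, 31.5%, 22.2% and 30.6%, and the next-ranked candidates 25.5%. Between 2 divergent protein-coding genes, with a start on each strand in the window, lay 47 sub-threshold summits (4.74%, 3.58 to 6.24%) and 46 peak summits (21.1%, 16.2 to 26.99%), against 2.33% of lower-ranked candidates. In the uppermost part it was 9.27%. Summits up to 250 bp upstream of the nearest protein-coding start made up 9.07% of sub-threshold regions, 27.1% of peaks and 5.21% of lower-ranked candidates.

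**Figure D2:**
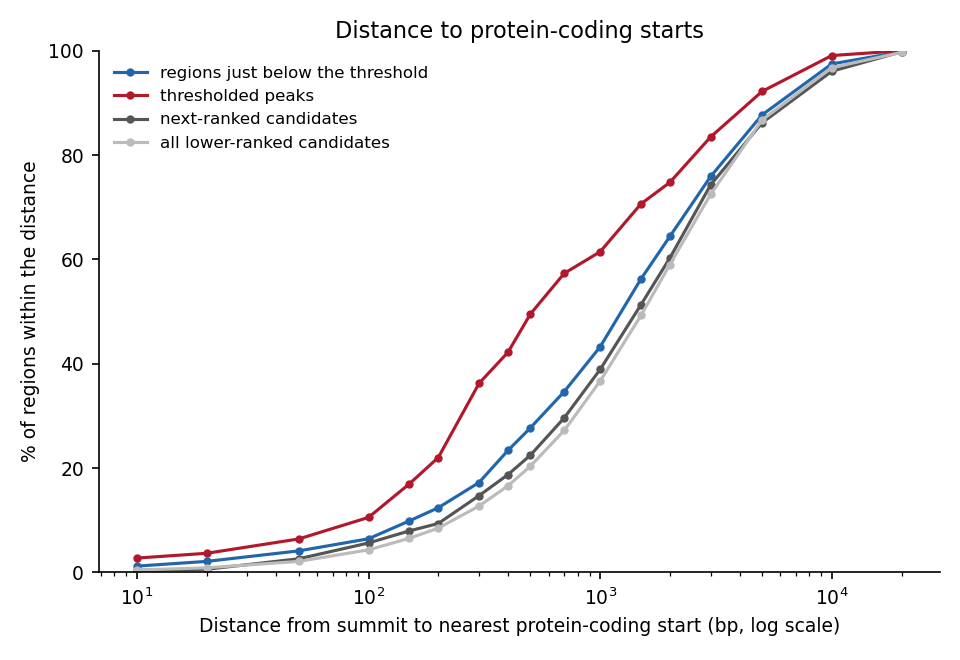
Cumulative share of regions (%, y axis) whose summit lies within a given distance (bp, log x axis, from 10 bp) of the nearest protein-coding start. Within 500 bp lay 27.7% of sub-threshold regions, 49.5% of peaks and 22.5% of next-ranked candidates.

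More than 2000 bp from any counted gene start lay 258 sub-threshold regions (26.01%, 23.4 to 28.8%), 16 peaks (7.34%) and 36.1% of lower-ranked candidates. The highest was at chrIII:9665411-9665810 (rank 220, signal value 93.9), in an intron, 2030 bp downstream of the start of C07A9.9, and it ranked 613 in replicate 1 and 235 in replicate 2. The next were on X outside protein-coding genes, at chrX:4395417-4395816 (rank 224, nearest coding start dpy-23 at 6258 bp) and chrX:1909366-1909765 (rank 227, nearest ZC53.1 at 3791 bp). dpy-23 encodes a subunit of a clathrin adaptor complex. Those at ranks 244 and 246, on chromosomes I and II, were nearest to W05H12.1 and R03H10.2. Of these 5, only the region at rank 220 was in the top 1000 of both replicates.

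By annotation, 47.4% of sub-threshold summits lay outside protein-coding genes, 28.1% in introns, 17.1% in coding sequence, 4.33% in 3′ UTRs and 3.02% in 5′ UTRs. Among peaks 71.1% lay outside, 21.1% in introns and 2.75% in coding sequence, and among lower-ranked candidates 40.6% lay outside and 22.8% in coding sequence. Coding sequence took 12.5% of the uppermost part, 16.1% and 16.9% of the middle parts and 22.98% of the lowest. On the X chromosome, which is 17.7% of the genome, lay 246 sub-threshold regions (24.8%, 22.2 to 27.6%), 26.1% of peaks and 23.2% of lower-ranked candidates. The shares of peaks and of lower-ranked candidates both lie within the interval of the sub-threshold regions. Chromosome V held 15.3% of sub-threshold regions, 16.1% of peaks and 21.3% of lower-ranked candidates.

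The sub-threshold summits lay in the windows of 358 protein-coding genes, which is 5.13% of the 6975 with any candidate summit in the window. The peaks lay at 176 of them (2.52%). At both were 2 genes, atx-2 and ecps-1, at the sub-threshold region of rank 219 and the peak of rank 21. Regions that overlap a peak were left out, and the nearest peak summit was at least 576 bp away. This choice limits how many genes can be at both, so the low count is not read as a result. atx-2 encodes the worm Ataxin-2, an RNA-binding protein. Each summit counted for all genes in whose windows it fell, so genes that share a summit are not separate cases. The lists of genes below were chosen with earlier results of these data known, and 27 of 37 had a gene at a sub-threshold region, 20 at a peak. The counts of every list stand beside the shares over all genes, 5.13% at sub-threshold regions and 2.52% at peaks.

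Genes of protein synthesis were present at sub-threshold regions. Ribosomal protein genes had 5 of 46 there (10.9%) and 8 of 46 at peaks (17.4%), where all genes had 5.13% and 2.52%. The 4 highest were rps-28 (IV, rank 231, summit 499 bp upstream), rps-15 (I, rank 249, 359 bp upstream), rps-24 (IV, rank 277, 315 bp upstream) and rps-12 (III, rank 329, 115 bp upstream), all of the small ribosomal subunit. rps-28 ranked 109 in replicate 2 and was not listed in replicate 1, while rps-12 ranked 427 and 376 and rps-15 ranked 978 and 252 in replicates 1 and 2. The remaining gene of the 5 was rpl-24.2 (I, rank 1122), with the summit 900 bp upstream, in a 3′ UTR. Its region ranked 497 in replicate 2 and was not listed in replicate 1. With windows of 250 bp before and after the start only 1 ribosomal protein gene had a sub-threshold summit.

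Translation factor genes had 5 of 17 at sub-threshold regions (29.4%) and 1 of 17 at peaks (5.88%), where all genes had 5.13% and 2.52%. Among them were 3 genes of initiation factor 3, eif-3.B (II, rank 279), eif-3.C (I, rank 398) and eif-3.E (I, rank 439), with summits 187 to 302 bp upstream, and the elongation factor gene eef-1A.1 (III, rank 492). eif-3.C ranked 535 and 372 in replicates 1 and 2. eif-3.B and eif-3.E ranked high in replicate 2 alone (134 and 175, against 6711 and 9030 in replicate 1). Genes of aminoacyl-tRNA synthetases, which charge tRNAs, had 2 of 10 at sub-threshold regions and 0 at peaks. They were ears-2 (IV, rank 298, summit 10 bp upstream) and mars-1 (IV, rank 1101). ears-2 ranked 1066 and 297 in replicates 1 and 2, and mars-1 ranked 12790 and 1208. Mitochondrial ribosomal protein genes had 3 of 25 (mrpl-28, mrpl-23 and mrpl-15) and 0 at peaks, and the region of mrpl-23 also lay within 100 bp of the snoRNA gene T08B2.13.

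Chaperone genes had 3 of 33 at sub-threshold regions (9.09%) and 5 of 33 at peaks. cct-7, a subunit gene of the cytosolic chaperonin, shared the region of rank 307 with T10B5.4, and that region ranked 666 and 383 in replicates 1 and 2. dnj-13 and dnj-18, genes of DnaJ co-chaperones, were at ranks 556 and 978. Genes of the respiratory chain and ATP synthase had 4 of 18 at sub-threshold regions and 2 of 18 at peaks. They were cox-5B (I, rank 278, summit 14 bp upstream), cox-5A (III, rank 411), atp-4 (V, rank 626) and asb-2 (X, rank 753). cox-5B ranked 110 in replicate 2 and 28904 in replicate 1, and asb-2 ranked 203 in replicate 1 and 29727 in replicate 2, so neither was high in both.

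The list named cell cycle and replication had 5 of 32 genes at sub-threshold regions and 4 at peaks, and membership of the list does not show a gene's role. The highest were cdk-5 (III, rank 467), rfc-4, of the clamp loader (III, rank 492, in the same region as eef-1A.1), cdc-14, a phosphatase gene (II, rank 588), and psf-1, of the GINS complex (II, rank 802). Only psf-1 of these was in the top 1000 of both replicates (574 and 803). Chromatin factor genes had 4 of 33 and 3 at peaks. They were set-2, which encodes an H3K4 methyltransferase (III, rank 280), jmjd-1.2, a demethylase gene (IV, rank 333), lsd-1 (X, rank 433) and set-4, a gene of an H4K20 methyltransferase (II, rank 611). set-2 ranked 693 and 326 in replicates 1 and 2. lin-53, of the DREAM complex and of chromatin complexes, was at the region of rank 302 (329 and 363 in replicates 1 and 2), 213 bp upstream.

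Of 18 CCCH zinc finger genes listed, 3 had a candidate in the window. Of these 3, 2 were at sub-threshold regions and 0 at peaks, where all genes had 5.13% and 2.52%. With only 3 genes these counts are not read as a result. mex-1, a maternal gene of germline blastomere fate, had its start 878 bp from the summit at rank 235. That summit also lay in the windows of rab-7 and W03C9.5. The region ranked 106 in replicate 2 and 7305 in replicate 1. oma-1, needed for oocyte maturation, was at rank 1061 (487 in replicate 1, 14119 in replicate 2). Single genes of other lists were lsm-8 (splicing, 1 of 25, against 3 at peaks), rpac-19 (RNA polymerase subunits, 1 of 7), rpn-3 (proteasome, 1 of 14) and npp-6 (nuclear pore, 1 of 14).

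Large families of the genome were at sub-threshold regions near their background or below it. Chemoreceptor genes had 9 of 432 (2.08%) at sub-threshold regions, 1 of 432 at peaks (0.231%) and 14 at the next-ranked candidates (3.24%), where all genes had 5.13% at sub-threshold regions. The highest were srz-4 (I, rank 347), str-206 (V, rank 454), srw-71 (V, rank 682) and srz-37 with srz-82, whose windows shared 1 summit (IV, rank 926). In the upper 500 ranks the count was 3, with windows of 250 bp before and after the start it was 4, and with windows from 2000 bp before the start to 500 bp after it the count was 21. Nuclear hormone receptor genes had 7 of 112 (6.25%) and 0 at peaks, with nhr-3, nhr-255, nhr-84 and nhr-256 as the highest. The region of nhr-255 (X, rank 465) also lay at the tRNA gene ZK678.t1.

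Genes of F-box proteins had 3 of 75 at sub-threshold regions, collagen genes 2 of 52, ion channel genes 4 of 61 and homeobox genes 2 of 27, namely mab-5 and ceh-43, with ceh-43 in a region near the tRNA gene C28A5.t1. The bHLH and bZIP list had zip-10 and mxl-3 (2 of 21), cytochromes P450 had cyp-43A1 (1 of 21) and the UGT and GST list had ugt-14 (1 of 47). Of the tissue lists, muscle had act-1, an actin gene (V, rank 497), neurons had egl-21, a neuropeptide processing gene (IV, rank 963), the intestine had the protease genes cpr-9, in a region near the tRNA gene F57F5.t1, and asp-3, and sperm had spe-48. The list of core and linker histones had 0 of 14 and the germline list 0 of 16. No gene was found at a sub-threshold region either for rRNA and snoRNP factors (12), glycolysis (6), small RNA pathway (17), DNA repair (8), mitochondrial import (6), C-type lectins (63), neuropeptides (50) and epidermis (10). With 5.13% of all genes at such a region, a count of 0 in a short list is no sign of avoidance. The tissue lists do not show in which cells the protein was recovered.

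**Figure D3:**
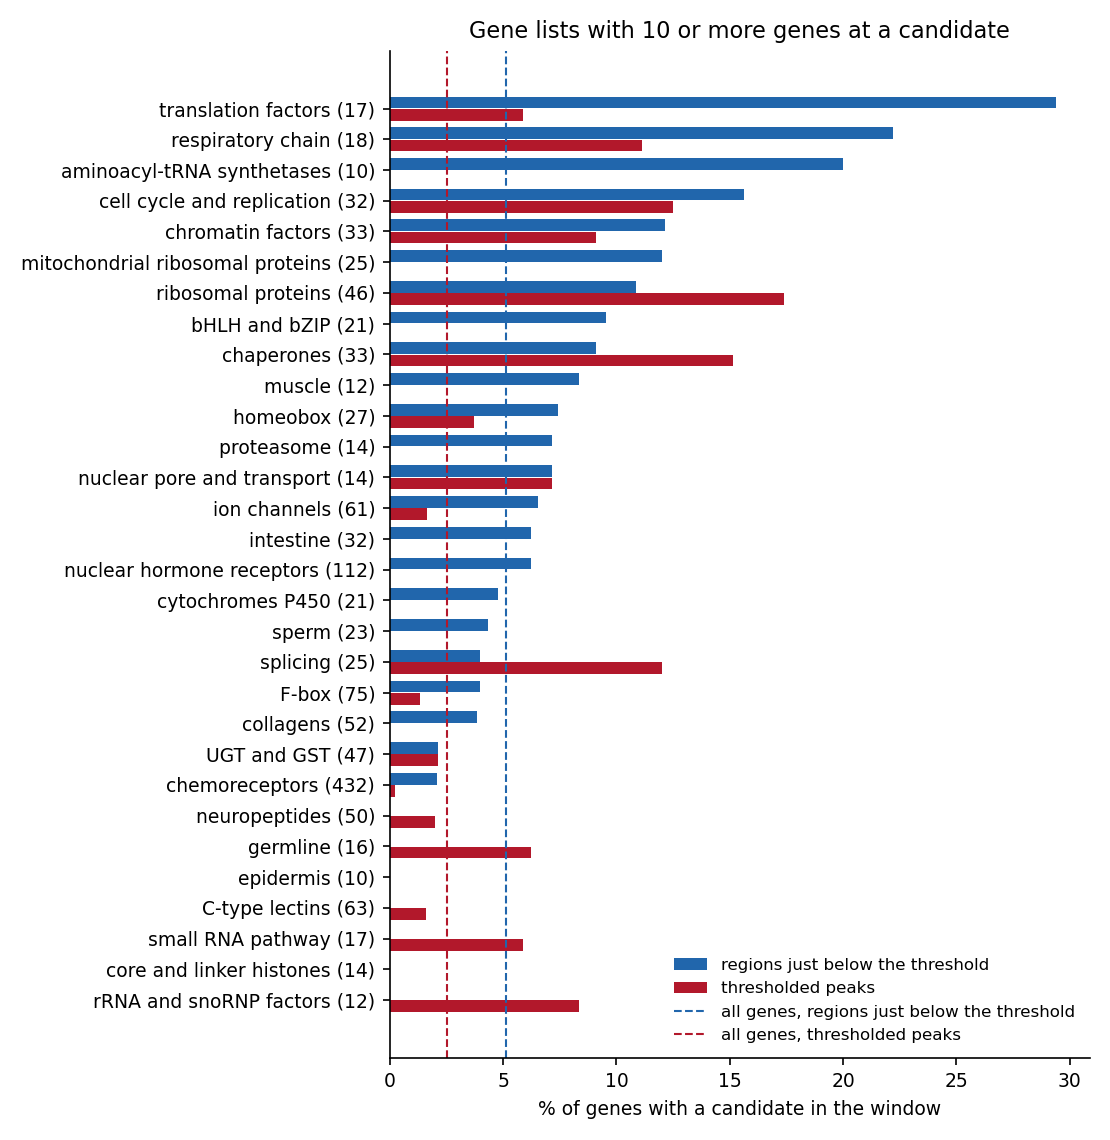
Share (%, x axis) of the genes of each list with a candidate summit in the window (number in brackets) that lay at a sub-threshold region (blue bars) or at a thresholded peak (red bars), for lists of 10 or more such genes. Dashed lines give the shares over all 6975 genes, 5.13% and 2.52%. Translation factors stood highest for sub-threshold regions (5 of 17) and ribosomal proteins for peaks (8 of 46).

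GC content likewise lay between that of the peaks and that of the next-ranked candidates. Within 50 bp of the summit it averaged 37.4% ± 9.87 (SD over 992 regions) in sub-threshold regions, 44.5% ± 9.55 in the 218 peaks, 35.1% ± 9.23 in the next-ranked candidates and 34.6% ± 8.65 in all lower-ranked candidates. The spread between single regions was larger than each of these differences. By part the means were 40.1%, 37.2%, 36.0% and 36.2%. Sub-threshold regions near tRNA genes averaged 44.4% ± 8.85, against 45.6% in peaks and 43.8% in lower-ranked candidates near such genes. Those near snoRNA genes averaged 50.4% ± 8.62, against 51.9% in peaks near such genes. Away from small RNA genes the mean was 36.4% in sub-threshold regions, 42.9% in peaks and 34.5% in lower-ranked candidates.

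**Figure D4:**
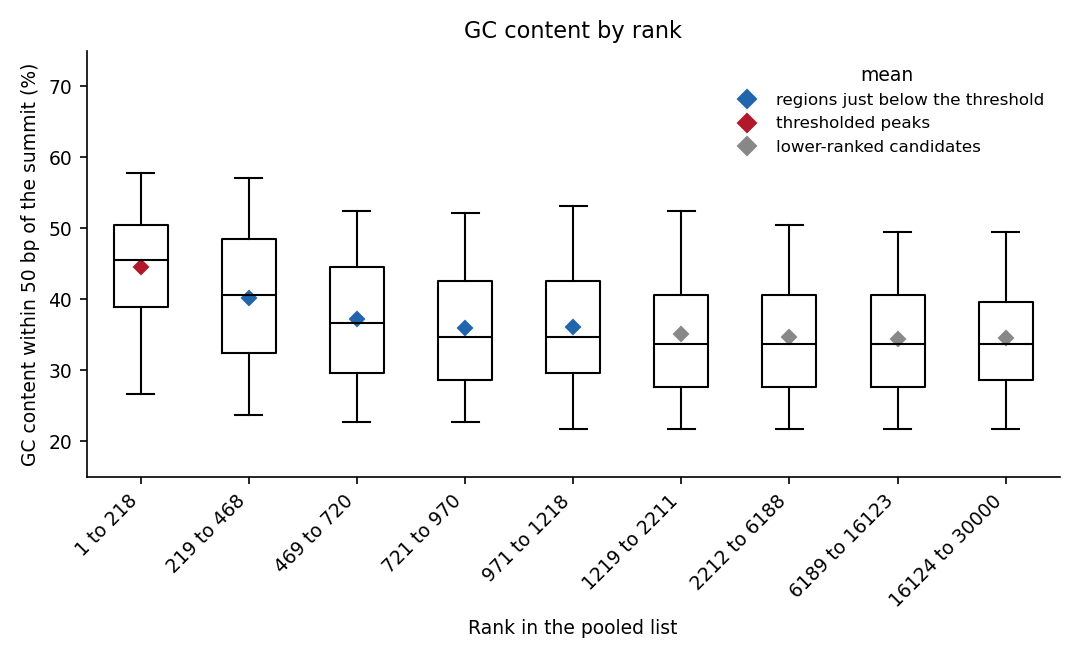
GC content within 50 bp of the summit (%, y axis) by rank in the pooled list (x axis). Boxes span the middle 50% of regions with the median as a line, whiskers reach from the lowest to the highest 5%, and diamonds are means, 44.5% in peaks and 40.1% in the uppermost part of the sub-threshold regions.

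Short sequences that an earlier comparison had found more often in the peaks were less frequent below the threshold. They were searched on both strands within 50 bp of the summit, and they were picked on the peaks, so the values of the peaks are high by choice. GGCCGA was present in 3.83% of sub-threshold regions (2.80 to 5.21%), 16.1% of peaks and 1.49% of lower-ranked candidates. CGGCCA was in 3.63%, 14.7% and 1.59%, GGCCTA in 3.12%, 11.01% and 1.54%, ACACGC in 2.32%, 13.3% and 1.59%, and GTACAC in 3.23%, 12.8% and 2.52%, in the same order. CGGCCA and GGCCGA overlap each other on opposite strands, as do ACACGC and GTACAC on 1 strand. At least 1 of the 5 was in 12.2% of sub-threshold regions (10.3 to 14.4%), 39.0% of peaks, 10.4% of next-ranked candidates (8.64 to 12.4%) and 7.53% of lower-ranked candidates. The uppermost part had 19.4% and the lowest 8.06%. GC content moved with these shares, and its part in them was not tested.

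The 5 sequences that had been less frequent in the peaks had shares nearer to those of lower-ranked candidates than to those of the peaks. The same held for the 5 more frequent sequences above. These 5 were also picked on the peaks, so the values of the peaks are low by choice. CCACCA was present in 4.03% of sub-threshold regions, 0.917% of peaks and 3.69% of lower-ranked candidates, and GGAGCC in 1.31%, 0% and 1.91%. The B box letters GTTCNANNC were near 7.76% of sub-threshold summits and 16.5% of peak summits, and near 3.87% and 3.40% of those away from small RNA genes, where 3.49% of lower-ranked candidates away from such genes had them. Among sub-threshold regions near tRNA genes 39 of 89 had them within 50 bp (43.8%), and among such peaks 24 of 41 (58.5%).

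Promoter sequences of sub-threshold regions that were high in both replicates show windows with and without these sequences. They were chosen for that after their values were seen. The 101 bp around the summit are given on the plus strand of WBcel235 from the RefSeq genome, with any of the 5 more frequent sequences, on either strand, in capitals. They are the regions at C49A9.10 (chrIV:6206548-6206648, rank 243), fzo-1 (chrII:5836463-5836563, rank 283), T10B5.4 and cct-7 (chrV:1871885-1871985, rank 307) and C09E7.7 (chrIII:6551543-6551643, rank 352).
C49A9.10: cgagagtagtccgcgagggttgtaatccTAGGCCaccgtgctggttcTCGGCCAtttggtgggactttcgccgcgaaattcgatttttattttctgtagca
fzo-1: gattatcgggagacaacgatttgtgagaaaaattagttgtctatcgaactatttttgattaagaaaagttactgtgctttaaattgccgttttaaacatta
T10B5.4 and cct-7: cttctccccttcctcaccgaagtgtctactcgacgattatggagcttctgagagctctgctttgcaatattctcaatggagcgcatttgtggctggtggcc
C09E7.7: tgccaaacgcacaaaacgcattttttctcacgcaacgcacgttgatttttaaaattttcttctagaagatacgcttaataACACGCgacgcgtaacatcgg
The window at C49A9.10 held GGCCGA with the overlapping CGGCCA, and also GGCCTA, and that at C09E7.7 held ACACGC. Those at fzo-1, the mitofusin gene, and at cct-7 held none of the 5. Their GC contents were 51.5% at C49A9.10, 29.7% at fzo-1, 51.5% at cct-7 and 40.6% at C09E7.7.

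In their own lists, few sub-threshold regions were high in both replicates. The pooled list that chose them holds the reads of both replicates, so replicate ranks are not independent of the choice and are given as a description. A region of the top 1000 of both replicate lists, by an overlap of at least 1 bp, lay at 71 of the 992 (7.16%, 5.71 to 8.93%) and at 195 of the 218 peaks (89.4%, 84.7 to 92.9%). The share was 0.706% in the next-ranked candidates, 0.108% in all lower-ranked candidates and 1.15% over all candidates. The uppermost part held 55 of the 71 and the other parts 6, 5 and 5. Overlapping pooled regions can share a replicate region, and the 71 rested on 66 regions of each replicate. With only the 500 highest regions of each replicate 8 sub-threshold regions remained in both.

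More regions were high in 1 replicate alone. In the top 1000 of replicate 1 were 318 (32.1%, against 3.96% of all candidates) and in that of replicate 2 were 384 (38.7%, against 3.99%). Replicate 1 alone had 247, replicate 2 alone had 313, and 361 were in neither top. No candidate of replicate 1 had a q-value under 0.125, while the lowest of replicate 2 was 0.0102, so none of replicate 1's regions passed a q-value of 0.05. Of the sub-threshold regions 36 overlapped no listed region of replicate 1 and 12 none of replicate 2. The median rank was 1890.5 in replicate 1 and 1506 in replicate 2, over the regions listed.

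**Figure D5:**
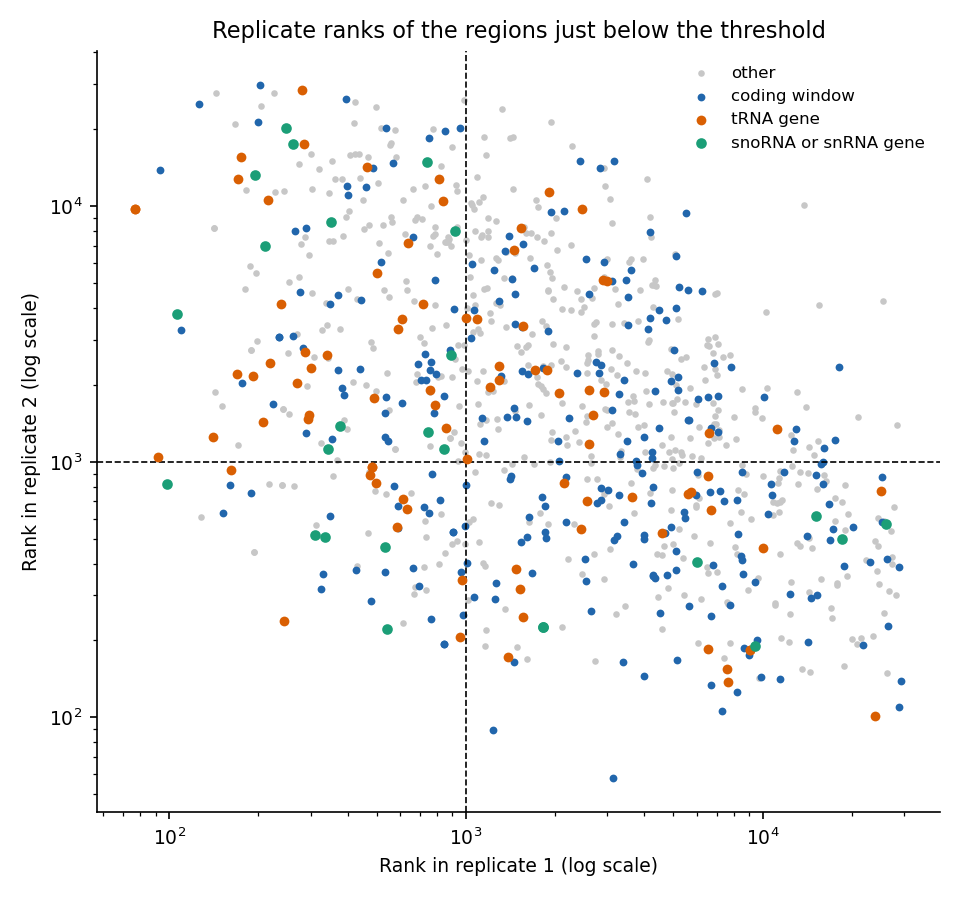
Rank in replicate 1 (log x axis) against rank in replicate 2 (log y axis) for the 944 sub-threshold regions listed in both, coloured by the gene at the summit, with dashed lines at rank 1000. The 71 regions in the lower left corner were in both tops. The regions were chosen by a pooled signal that holds the reads of both replicates, so no relation between the ranks is read from the plot.

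By class of gene, the shares in the 2 tops were as follows, with no test of a difference between classes. The 2 shares of a class come from the same regions, so their intervals do not judge the difference between the replicates. Near tRNA genes, 44 of the 89 regions were in the top 1000 of replicate 1 (49.4%, 39.3 to 59.6%). In that of replicate 2 were 34 (38.2%, 28.8 to 48.6%). Near snoRNA genes, 17 of the 22 regions were in the top of replicate 1 (77.3%, 56.6 to 89.9%). In that of replicate 2 were 10 (45.5%, 26.9 to 65.3%). Of the 282 in a window of a protein-coding gene and away from small RNA genes 82 were in the top of replicate 1 (29.1%) and 142 in that of replicate 2 (50.4%). Regions with no start in the window had 161 and 187 of 563. Divergent windows made up 3 of the 247 regions high in replicate 1 alone and 23 of the 313 high in replicate 2 alone. With 2 replicates, a difference between them has no further check.

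The 71 regions in both tops had small RNA genes at 16, of which 11 were tRNA and 5 snoRNA genes. Another 27 lay in windows of protein-coding genes away from these, and 27 had no counted gene start in the window. The tRNA share was 15.5% in these 71, 13.4% in regions high in replicate 1 alone, 7.35% in those high in replicate 2 alone and 6.09% in those high in neither. Mean GC content was 39.5%, 38.6%, 37.3% and 36.3% in the same order. On X lay 16 of the 71 (22.5%).

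The 20 highest of the 71 ranked from 220 to 281. Besides the 5 snoRNA genes named first above, they held the tRNA genes K06A4.t1, F43C9.t1, K11E4.t6 (tRNA-Lys, X, rank 265) and C40C9.t1 (tRNA-Thr, X, rank 275). K11E4.t6 ranked 161 and 933 in replicates 1 and 2, and C40C9.t1 ranked 498 and 828. In another 7 the summit lay in the window of a protein-coding gene, away from small RNA genes. They were at C01G10.9 with C01G10.10 (V, rank 222), Y22D7AL.4 (III, rank 240), C49A9.10 (IV, rank 243) and rps-15 with F36A2.9 (I, rank 249). The others were at thoc-5 (III, rank 262), set-2 (III, rank 280) and R166.2 (II, rank 281). The summit at Y22D7AL.4 was 909 bp upstream of the start, in a 3′ UTR.

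thoc-5 encodes a subunit of the THO complex, which couples transcription to mRNA export. Its region lay 21 bp upstream of the start and ranked 152 and 632 in replicates 1 and 2, with signal values of 56.7 and 44.4. C49A9.10 (254 bp upstream) ranked 160 and 814, with signal values of 55.9 and 42.5, and R166.2 (377 bp upstream) ranked 480 and 285, with 42.2 and 51.8. The signal scale is that of each replicate's own list, so values of the 2 replicates are not set against each other. The remaining 4 of the 20 had no start in the window, at ranks 220 (III), 270 (X), 272 (III) and 274 (X). The last was in the 5′ UTR of cdd-1, 210 bp after its start and so just outside the window.

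A few genes had more than 1 sub-threshold summit in the window, 6 of the 358, each with 2, and 5 are named by the rule. E04F6.6 and pcrg-1 on chromosome II shared the regions of ranks 336 and 989, C09E7.7 on III had ranks 352 and 915, ikke-1 on III had 458 and 499, and nhr-255 on X had 465 and 466. The regions of E04F6.6 with pcrg-1 and of C09E7.7 were in both tops. In all, 30 of the 992 regions overlapped another of them, in 15 pairs, and the tRNA genes C11E4.t1 and ZK678.t1 each lay near a pair of regions.

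The threshold itself fell at a small step of the signal value. The lowest peak, rank 218, had a signal value of 94.4 and lay upstream of mtx-1 and dnj-12 on chromosome I. The highest sub-threshold region, rank 219, had 94.3 and lay 45 bp upstream of atx-2 on chromosome III. It ranked 1453 in replicate 1 and 165 in replicate 2, and the peak at rank 218 ranked 134 and 944. At the other end the lowest sub-threshold region, rank 1218, had 63.99 and the next candidate 63.97. The signal values of sub-threshold regions ran from 63.99 to 94.3, with a median of 69.8, and their q-values from 0.0297 to 0.597, with a median of 0.434. At or under 0.05 were 11 of them (1.11%, against 0.763% of all candidates), all at rank 232 or above.

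These 11 regions were mixed in kind. They included the promoters of atx-2 and ecps-1, C01G10.9 and C01G10.10, C27F2.9 and vps-22, Y106G6H.16 and ska-1, rps-28, and C47E8.11 and gasr-8, the snoRNA genes M106.6 and C27H5.9, and the 3 regions far from starts at ranks 220, 224 and 227. vps-22 encodes a subunit of an ESCRT complex of endosomal sorting, and ska-1 a subunit of a complex at the kinetochore. Of the 5 lowest regions, ranks 1214 to 1218, 1 had its summit in the window of a gene. The gene was crt-1, the calreticulin gene, with its start 238 bp from the summit. That region ranked 555 in replicate 2 and 20217 in replicate 1. All 992 regions were 400 bp wide, and the nearest peak summit was at least 576 bp away, with a median of 124036 bp.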

How the data were processed

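Per the deposited file records, the candidate lists of the replicates and of the pool were made from the alignments and 1 further file that all share, which also went into the control-normalized tracks and is taken as the control. The thresholded peaks were derived from these 3 lists. What the control was, the aligner, the peak caller and the IDR threshold: none was given in the sources used here. Each region's deposited signal value is the caller's score, on an unstated scale. The deposited −log10 q-value is the negative logarithm of its false discovery rate, and q-values are given here converted back from it. The signal value and the q-value were used only to rank and describe regions within a list. Gene starts, types and exons came from Ensembl release 115 and names and sequences from RefSeq, both of WBcel235, joined by WormBase identifier. Overlap meant at least 1 bp. Shares carry Wilson intervals (scipy 1.17.1, Python 3.11.15), and the steps were tested on simulated regions. The members and gene lists were chosen with earlier results of these data known. Named were the 5 highest and 5 lowest regions, the 20 highest in the top 1000 of both replicates, the 6 highest per small RNA class, the 4 highest genes per list, the 5 highest regions far from starts and the 5 genes with most summits. Alternatives changed the rank range, replicate, window, distance, overlap, GC width and assignment of genes.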

Additional observations from a re-analysis of the deposited data

How the results depend on the processing

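Of 59 alternative values, 34 stayed within the interval of the reported share or within 1.5 times the reported count, and 25 moved outside it. Leaving out regions within 500 bp of a peak summit removed none, so its values, counted among the 34, could not change. In the upper 500 ranks the promoter share was 52.0%, the tRNA share 14.4%, the snRNA share 0%, mean GC content 38.7% and the chemoreceptor count 3. With windows of 250 bp before and after the start the promoter share was 27.5%, with 1 ribosomal protein gene and 4 chemoreceptor genes, and with windows from 2000 bp before it to 500 bp after it the share was 59.98%, with 21 chemoreceptor genes. Protein-coding starts alone gave 31.1%. With the summit inside the gene tRNA genes had 3.73%, snoRNA genes 0.806% and snRNA genes 0%. Over the whole region GC content was 36.4%. Over regions away from small RNA genes (an alternative added after seeing the data) the promoter share was 35.9% and GC content 36.4%. In the 500 highest regions of each replicate 8 regions were in both. From each replicate's own list in turn, without the other, the ranges were 36.1 to 39.4% for promoters, 3.50 to 5.82% at tRNA genes, 1.16 to 1.27% at snoRNA genes, 0.317 to 0.530% at snRNA genes and 35.6 to 37.9% for GC content. A summit inside a gene, protein-coding starts alone and the 500 highest regions of each replicate are narrower rules and can only lower a count. The upper 500 ranks likewise can only lower a count of genes. The window from 2000 bp before the start to 500 bp after it is wider and can only raise a count. The 114 regions near small RNA genes all counted as promoter regions, so leaving them out lowers the promoter share. The cause of the remaining shifts, and of the size of those above, was not tested. No paired analysis was possible because the series has 1 group and no test was made. Read depth is unknown, and counts of 3 regions, as for snRNA genes, leave intervals wide.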
